A study of Mus musculus with 24 samples.

Results

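The DNA replication machinery was examined in conventional CD4+ T cells (Tconv CD4+) as a set of 52 genes chosen by symbol, of 55414 genes listed in the count table. All 52 were found and all 52 were among the 10566 genes that passed the filter on low counts. The cells were splenic CD4+ CD25- cells isolated with magnetic beads from mtDNA B6 mice, labelled WT, or from mtDNA NZB mice. Both are conplastic mice with the same C57BL/6J nuclear genome, so that the groups differed by their mitochondrial DNA. The study gives young adult males for most of its experiments without naming the animals behind each library. Resting cells, labelled RES, were compared with cells activated for several days on CD28/CD3 beads with added IL-2, a T cell growth factor that the methods name for the activated arm, labelled ACT, with 6 libraries in each of the 4 groups, named here B6 or NZB, resting or activated, with a replicate number. Whether the resting cells were cultured, and whether animals were pooled, is not given in the sources used here. RNA was read by bulk MARS-Seq, a method that sequences transcript 3′ ends and gives every captured molecule a random tag, the unique molecular identifier (UMI), so that copies made by amplification are counted once. Levels are given in CPM, the UMI count divided by the TMM-scaled library size and multiplied by 1000000, and changes as log2 fold changes with their standard errors (SE). A gene was called at an adjusted p of at most 0.05 (edgeR, quasi-likelihood, Benjamini-Hochberg, whole table).

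A replication origin is licensed when the origin recognition complex, Cdc6 and Cdt1 load the MCM helicase onto DNA, and it fires in S phase when the kinase Cdc7-Dbf4, Cdc45 and the GINS complex turn that helicase on. Polymerase alpha with primase then starts each strand, polymerases delta and epsilon extend it behind the sliding clamp Pcna, and Fen1, Dna2 and Lig1 join the fragments of the lagging strand. A naive T cell is quiescent and holds little of this apparatus, and stimulation of its receptor brings it into cycle. E2F factors, held back by pocket proteins in quiescent cells, are known activators of many of these genes.

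Libraries held from 51409 to 6449395 UMI counts. The smallest was NZB resting replicate 2, in which 1 UMI was worth 16.9 CPM and the 52 genes together held 122 UMIs, with 18 of them at 0, whereas 1 UMI was worth at most 1.44 CPM elsewhere. Il2ra, the alpha chain of the interleukin-2 receptor and a textbook mark of T cell activation, lay at 0 to 5.71 CPM in the resting libraries and at 42.0 to 180 CPM in the activated ones. Il2ra encodes CD25, and the cells were selected as CD25-, so its resting level is not independent of the selection. Summed with Cd69, Tnfrsf4, Tnfrsf9 and Icos, it ran from 90.1 to 288 CPM at rest and from 333 to 615 CPM after activation. The ratio of group means of this sum was 2.95 in B6 and 2.55 in NZB cells. The T cell markers summed to between 2839 and 5041 CPM in every group. RNA of other cells moved with the state of the cells. All 4 tested macrophage, all 4 tested granulocyte precursor, all 6 neutrophil and 7 of 8 erythroid markers fell on activation in both haplotypes. Ighm, the heavy chain of IgM made by B cells, ranged from 5468 to 16785 CPM at rest and from 1019 to 5387 CPM after activation, and fell in both haplotypes, by 1.58 ± 0.34 on the log2 scale in B6 cells (adjusted p = 0.000435) and by 2.11 ± 0.34 in NZB cells (adjusted p = 1.43e-05). At rest this gene alone had more UMI counts than the summed T cell markers in every library. The B cell receptor subunits Cd79a and Cd79b and the surface marker Ms4a1 together ranged from 155 to 850 CPM at rest and from 44.6 to 723 CPM after activation, and none of the 3 was called in either haplotype. The summed NK cell markers ranged from 5.62 to 33.9 CPM at rest and from 0 to 3.39 CPM after activation, and the 1 tested, Klrb1c, fell in both haplotypes. C1qa was at 0 in every activated library. The 2 tested platelet markers both rose in B6 cells and 1 of them in NZB cells. Both CD8 T cell markers rose, their sum ranging from 16.9 to 142 CPM at rest and from 82.0 to 534 CPM after activation. The part of these shifts in the results below was not tested, and in RNA from a whole culture fewer cells of a type and less RNA per cell cannot be told apart. By reads per UMI the libraries fell into 3 sets of 8. No B6 resting library was in the set that held 5 of the 6 B6 activated libraries, so within-set values are given where a set held both groups.

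Activation raised the replication machinery in both haplotypes. In B6 cells 47 of 52 genes rose and 0 fell, where 22.4% of all genes tested were called higher and 24.5% lower. In NZB cells 50 rose and 0 fell, where 25.2% of all genes were called higher and 28.4% lower. The median log2 fold change of the 52 genes was 1.07 in B6 cells (2.10-fold) and 1.49 in NZB cells (2.82-fold), beside medians of -0.03 and -0.06 over all genes tested. A change of at least 2-fold was met by 30 of the called genes in B6 cells and by 41 in NZB cells. The activated and resting libraries did not overlap for 40 genes in B6 cells, where this was so upward for 15.4% of all genes, and for 36 genes in NZB cells, where it was so for 11.9%. Genes not called were Orc2, Cdt1, Rfc1, Dna2 and Timeless in B6 cells and Cdt1 and Dbf4 in NZB cells. Of those called, 39 in B6 and 44 in NZB cells were called in every alternative that tested them, a 2-fold cut-off apart, and with each library left out. The others were Orc1, Cdc6, Gins3, Cdc7, Pola1, Pold1, Pold2 and Pold3 in B6 cells and Orc1, Orc2, Cdc7, Pole2, Chaf1a and Timeless in NZB cells. The plot of fold changes by role shows these values for every gene.

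**Figure D1:**
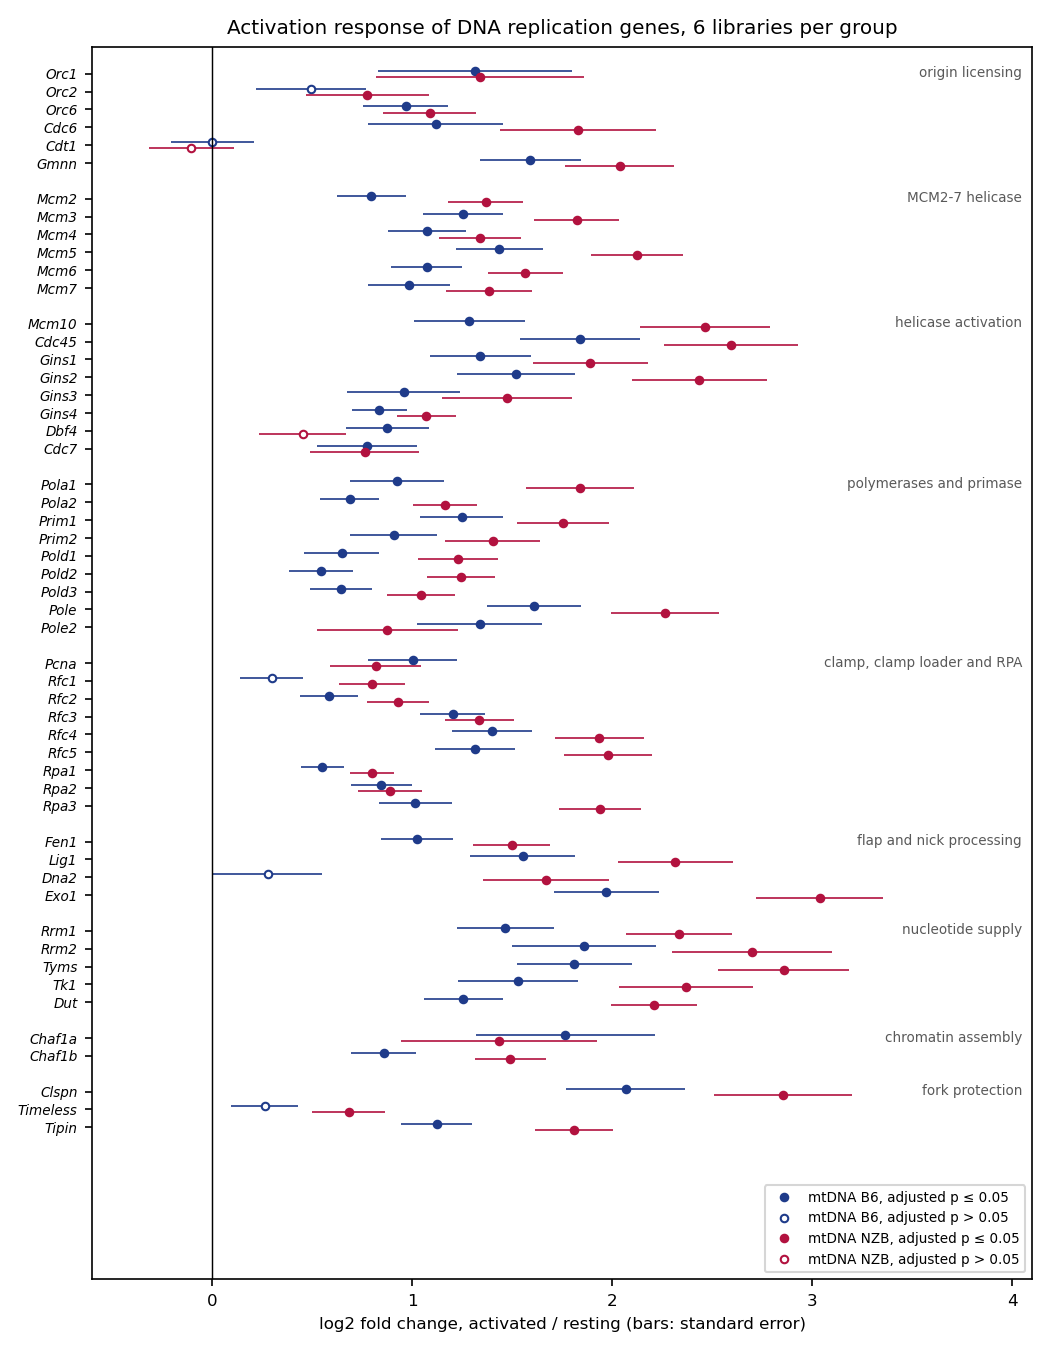
Log2 fold change from resting to activated (x axis) for each of the 52 genes, grouped by role, in mtDNA B6 (blue) and mtDNA NZB (red) cells; bars are standard errors and open circles mark genes that were not called. All B6 values lie above 0, Clspn is the highest in B6 cells at 2.07 and Exo1 in NZB cells at 3.04, and Cdt1 lies at 0.00 and -0.10.

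The share of a library's UMI counts that fell on the 52 genes followed the same division. Their summed level was 2901 ± 610 CPM (SD, n = 6) in B6 resting, 6057 ± 972 CPM in B6 activated, 2404 ± 563 CPM in NZB resting and 6880 ± 1572 CPM in NZB activated libraries, a ratio of 2.09 in B6 and of 2.86 in NZB cells. Every activated library, from 4829 CPM upward, lay above every resting library, of which the highest was B6 resting replicate 5 at 3845 CPM. Within the sets of libraries, all 52 genes were higher after activation in B6 cells of the second set, with 1 activated against 4 resting libraries and a median difference of 1.46 on the log2(CPM + 1) scale. That library was B6 activated replicate 5, which had the highest summed level of its group, at 7374 CPM. In NZB cells 52, 52 and 50 genes were higher in the 3 sets, with 2 activated libraries in each against 1, 1 and 4 resting ones. The 4 included NZB resting replicate 2, the smallest library.

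**Figure D2:**
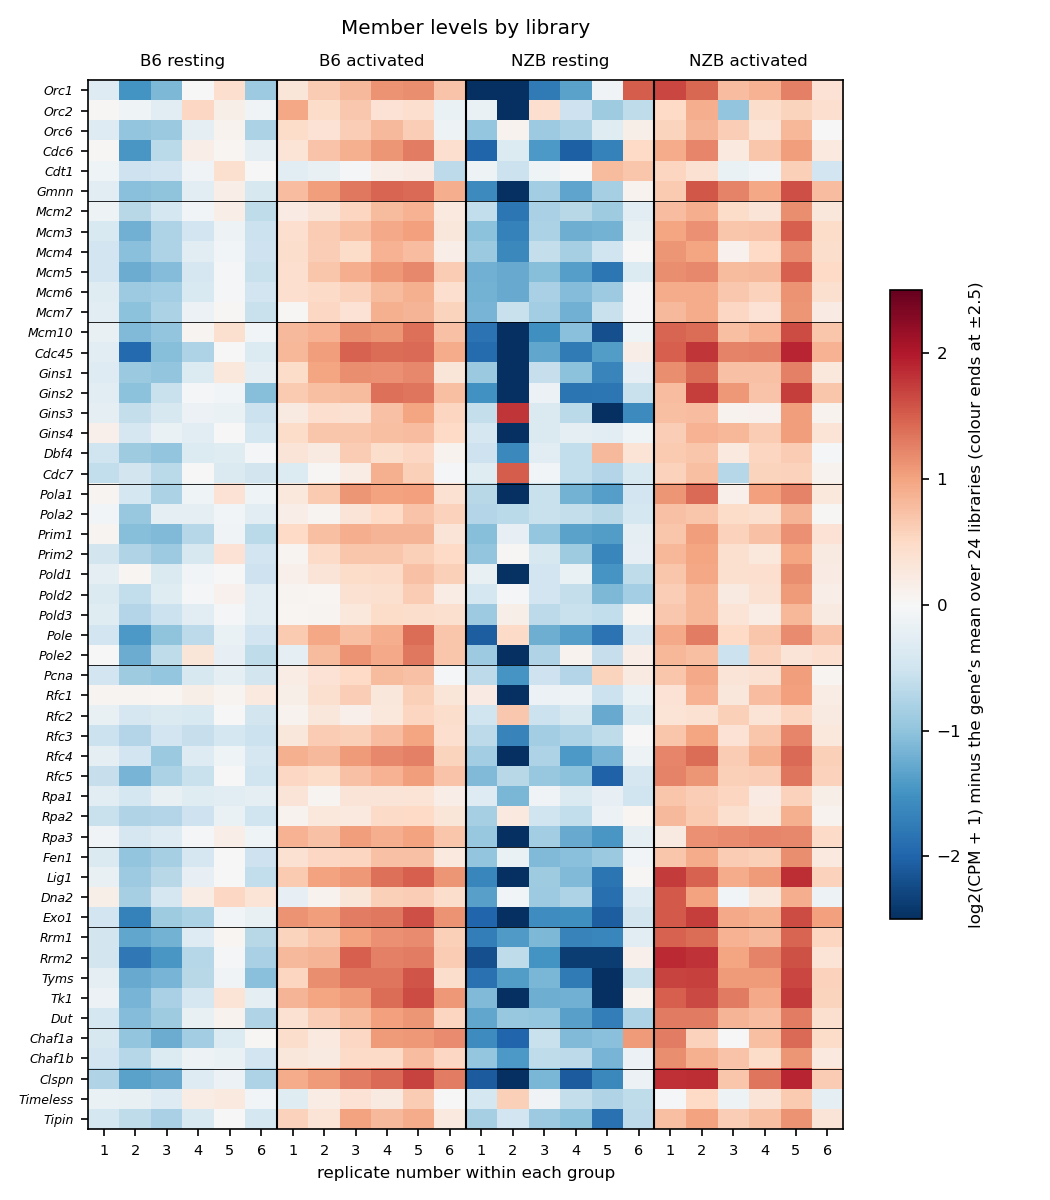
Level of each gene in each library as log2(CPM + 1) minus the gene's mean over the 24 libraries, with genes in rows ordered by role and libraries in columns by group and replicate; red is above and blue below the mean. Activated libraries are red for nearly all genes, and NZB resting replicate 2 holds the scattered extremes, with 18 genes at 0.

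Among the 6 origin licensing genes, 4 rose in B6 and 5 in NZB cells. Gmnn, which encodes geminin, the inhibitor that binds Cdt1 after origins have fired, moved most in this role in B6 cells. Its level ran from 38.1 through a median of 63.0 to 89.0 CPM in B6 resting and from 137 through 182 to 219 CPM in B6 activated libraries. In NZB cells it ran from 0 through 37.2 to 84.3 CPM at rest and from 125 through 173 to 246 CPM after activation. Neither pair of groups overlapped, and the log2 fold changes were 1.59 ± 0.25 (adjusted p = 1.32e-05) and 2.04 ± 0.27 (adjusted p = 9.20e-07). Cdt1, the loading factor that geminin binds, stood apart from the other licensing genes. B6 cells held 69.5 to 130 CPM at rest, with a median of 93.0, and 62.6 to 115 CPM after activation, with a median of 92.2. NZB cells held 67.8 to 172 CPM (median 96.2) and 71.4 to 150 CPM (median 113). The groups overlapped throughout, with log2 fold changes of 0.00 ± 0.21 (adjusted p = 0.997) and -0.10 ± 0.21 (adjusted p = 0.710), and the sign of both values changed with the processing. Cdc6, the ATPase that works with the origin recognition complex, rose by 1.12 ± 0.34 and 1.83 ± 0.39 on the log2 scale, and Orc1, its largest subunit, by 1.31 ± 0.48 and 1.34 ± 0.52. The call of Orc1 was lost in both haplotypes with DESeq2, with a block by the number that opens each sample description (the label number) and when thinned to a common depth, and with 5 single libraries left out in B6 cells and 6 in NZB cells, where its change was 2.61 without NZB resting replicate 6. Orc2 overlaps the protein-coding gene Nif3l1 at its 3′ end on the other strand, and its change was 0.50 ± 0.27 in B6 cells (adjusted p = 0.142) and 0.78 ± 0.31 in NZB cells (adjusted p = 0.0360).

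All 6 subunits of the MCM helicase, the ring that unwinds DNA ahead of the polymerases, rose in both haplotypes. Their log2 fold changes lay between 0.80 and 1.44 in B6 cells and between 1.34 and 2.12 in NZB cells. Mcm5 moved most. Its B6 libraries ran from 85.4 through 142 to 196 CPM at rest and from 273 through 357 to 467 CPM after activation, and its NZB libraries from 57.7 through 86.2 to 160 CPM and from 288 through 406 to 578 CPM. The states were separate in both haplotypes, with changes of 1.44 ± 0.22 (adjusted p = 6.58e-06) and 2.12 ± 0.23 (adjusted p = 4.39e-08). Mcm2 moved least of the ring in B6 cells, from 74.1 to 136 CPM at rest (median 99.2) to 140 to 223 CPM (median 164), and yet its states did not overlap. In NZB cells its range was 33.9 to 98.8 CPM at rest (median 71.8) and 148 to 271 CPM after activation (median 187). The changes were 0.80 ± 0.17 (adjusted p = 0.000536) and 1.37 ± 0.19 (adjusted p = 1.16e-06). Mcm7 shares its 3′ end with Cops6 on the other strand.

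Of the 8 genes that turn the helicase on, 8 rose in B6 and 7 in NZB cells, with medians of 1.12 and 1.68. Cdc45, which joins MCM and GINS to form the active helicase, had the largest change in B6 cells. It was measured at 7.61 through 21.6 to 31.6 CPM in B6 resting and at 57.5 through 76.5 to 90.5 CPM in B6 activated libraries. In NZB cells it was at 0 through 10.1 to 36.1 CPM and at 59.5 through 85.0 to 122 CPM. Its states did not overlap in either haplotype, and the changes were 1.84 ± 0.30 (adjusted p = 1.86e-05) and 2.59 ± 0.34 (adjusted p = 6.23e-07). Mcm10, a scaffold for the firing origin, rose by 1.29 ± 0.28 and 2.46 ± 0.33. The kinase pair changed less. Cdc7, the catalytic subunit, ran from 6.75 through 7.92 to 11.4 CPM in B6 resting and from 8.66 through 12.3 to 21.8 CPM in B6 activated libraries, and from 6.42 through 8.72 to 33.9 CPM and 6.54 through 17.1 to 19.6 CPM in NZB cells. Its states overlapped in both haplotypes, with changes of 0.78 ± 0.25 (adjusted p = 0.0135) and 0.76 ± 0.27 (adjusted p = 0.0213). Both calls were lost with DESeq2 (adjusted p = 0.0535 and 0.0767), with the block by label number (0.118 and 0.217), with library sets as a term and when thinned, and 1 library left out ended the call in B6 cells (activated replicate 4) and any of 3 in NZB cells (resting replicates 4 and 5, activated replicate 2). Dbf4, its activating subunit, rose by 0.88 ± 0.21 in B6 cells (adjusted p = 0.00125), and its change in NZB cells was 0.45 ± 0.22 (adjusted p = 0.0830).

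All 9 polymerase and primase genes rose in both haplotypes, with medians of 0.91 and 1.24. Pole, the catalytic subunit of the leading-strand polymerase epsilon, moved most in B6 cells. Resting B6 libraries held 8.27 to 21.4 CPM (median 15.9) and activated ones 38.7 to 64.7 CPM (median 43.6), and NZB libraries 5.01 to 33.9 CPM (median 9.21) and 34.4 to 60.0 CPM (median 43.9). No activated library reached down to a resting one of its haplotype, and the changes were 1.61 ± 0.23 (adjusted p = 4.06e-06) and 2.26 ± 0.27 (adjusted p = 1.53e-07). Pold2, an accessory subunit of the lagging-strand polymerase delta, was the least changed in B6 cells. Its B6 levels of 68.2 to 113 CPM at rest (median 85.9) and 110 to 165 CPM after activation (median 129) touched, whereas its NZB levels of 48.1 to 102 CPM (median 72.3) and 119 to 223 CPM (median 151) were separate. The changes were 0.54 ± 0.16 (adjusted p = 0.00647) and 1.24 ± 0.17 (adjusted p = 1.32e-06). Pola1, the catalytic subunit of polymerase alpha, rose by 0.93 ± 0.24 and 1.84 ± 0.27. Prim1, the small primase subunit that makes the RNA primer, rose by 1.25 ± 0.21 and 1.75 ± 0.23. Pole2 lies over Gm49384 on the same strand, so its counts are uncertain.

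The clamp, the clamp loader and RPA, the complex that coats single-stranded DNA, comprised 9 genes, of which 8 rose in B6 and 9 in NZB cells. Pcna, the clamp itself, rose by 1.00 ± 0.22 in B6 cells and 0.82 ± 0.23 in NZB cells. Of the loader subunits Rfc4 changed most in B6 cells. It ran from 16.9 through 25.3 to 30.7 CPM at rest and from 48.7 through 65.7 to 80.6 CPM after activation in B6 cells, and from 0 through 15.9 to 30.1 CPM and from 49.99 through 69.5 to 89.8 CPM in NZB cells. These ranges were separate, with changes of 1.40 ± 0.20 (adjusted p = 3.49e-06) and 1.94 ± 0.22 (adjusted p = 1.04e-07), and Eif4a2 overlaps its 3′ end on the other strand. Rfc1, the large loader subunit, changed least in B6 cells. Its levels of 51.95 to 60.2 CPM at rest (median 53.1) and 56.3 to 78.3 CPM after activation (median 64.6) overlapped, as did those in NZB cells, 0 to 58.1 CPM (median 45.2) and 57.8 to 103 CPM (median 75.5). The changes were 0.30 ± 0.16 (adjusted p = 0.121) and 0.80 ± 0.17 (adjusted p = 0.000261). Rpa1, the large DNA-binding subunit of RPA, rose by 0.55 ± 0.11 and 0.80 ± 0.11, and Rpa3, the small subunit, by 1.02 ± 0.18 and 1.94 ± 0.21.

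Among the nucleases and ligase that process flaps and nicks, 3 of 4 rose in B6 and 4 of 4 in NZB cells. Exo1, a nuclease of mismatch repair and DNA end resection, ran from 2.65 through 6.68 to 10.3 CPM in B6 resting and from 23.6 through 26.4 to 35.3 CPM in B6 activated libraries. In NZB cells its range was 0 through 2.51 to 7.63 CPM and 20.9 through 28.0 to 38.5 CPM. The states were far apart, and the changes were 1.97 ± 0.26 (adjusted p = 1.28e-06) and 3.04 ± 0.32 (adjusted p = 2.16e-08). Lig1, the ligase that seals lagging-strand fragments, rose by 1.55 ± 0.26 and 2.32 ± 0.29, and Fen1, the flap endonuclease, by 1.02 ± 0.18 and 1.5 ± 0.19. Dna2, a nuclease and helicase for long flaps, did not pass in B6 cells. Its B6 levels ran from 9.60 through 20.03 to 25.9 CPM at rest and from 15.3 through 23.4 to 27.6 CPM after activation, and overlapped broadly. Its NZB levels ran from 4.12 through 9.57 to 16.9 CPM and from 16.3 through 28.1 to 53.2 CPM, with 1 UMI in the smallest library as the highest resting value. The changes were 0.28 ± 0.27 (adjusted p = 0.422) and 1.67 ± 0.32 (adjusted p = 9.02e-05).

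The 5 enzymes of nucleotide supply all rose, with the highest median of the roles in both haplotypes, 1.53 in B6 and 2.37 in NZB cells. Rrm2, the inducible small subunit of ribonucleotide reductase, held 22.5 to 78.2 CPM in B6 resting (median 46.6) and 124 to 227 CPM in B6 activated libraries (median 170). NZB libraries held 14.6 to 87.1 CPM (median 22.3) and 101 to 295 CPM (median 216). Both pairs were separate, with changes of 1.86 ± 0.36 (adjusted p = 0.000143) and 2.70 ± 0.40 (adjusted p = 3.79e-06). Tyms, which makes thymidylate, rose by 1.81 ± 0.29 and 2.86 ± 0.33, and Tk1, which salvages thymidine and overlaps Syngr2 at its 3′ end, by 1.53 ± 0.30 and 2.37 ± 0.33. Dut, which removes dUTP from the nucleotide pool, changed least of the role in B6 cells. Its levels were 92.3 to 211 CPM at rest (median 131) and 258 to 429 CPM after activation (median 323) in B6 cells, and 58.7 to 115 CPM (median 90.8) and 263 to 492 CPM (median 419) in NZB cells. No overlap was seen, and the changes were 1.25 ± 0.20 (adjusted p = 1.17e-05) and 2.21 ± 0.21 (adjusted p = 7.42e-09).

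Both tested subunits of chromatin assembly factor 1, which deposits histones on new DNA, rose. Chaf1a was sparse, at 0.675 through 1.59 to 3.01 CPM in B6 resting and 3.67 through 5.92 to 7.92 CPM in B6 activated libraries, and at 0 through 0.878 to 7.23 CPM and 2.94 through 5.28 to 9.60 CPM in NZB cells. Its NZB states overlapped through replicate 6 of the resting group, with changes of 1.77 ± 0.45 (adjusted p = 0.00220) and 1.43 ± 0.49 (adjusted p = 0.0158), and Ubxn6 overlaps its 3′ end. The NZB call was lost with the block by label number (1.10, adjusted p = 0.173 by edgeR) and without NZB resting replicate 4 or NZB activated replicate 5, and the change was 2.56 without NZB resting replicate 6. Chaf1b ran from 28.8 through 35.6 to 43.5 CPM and from 56.0 through 66.8 to 82.1 CPM in B6 cells, and from 16.9 through 26.8 to 42.6 CPM and from 56.4 through 83.5 to 108 CPM in NZB cells. Its states were separate in both haplotypes, with changes of 0.86 ± 0.16 (adjusted p = 0.000127) and 1.49 ± 0.18 (adjusted p = 1.75e-07).

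Of the genes that protect the moving fork, Clspn, the claspin adaptor of the replication checkpoint, had the largest change of all 52 genes in B6 cells. It ran from 6.29 through 9.88 to 15.6 CPM at rest and from 33.9 through 43.6 to 58.1 CPM after activation in B6 cells, and from 0 through 4.20 to 15.7 CPM and from 27.6 through 55.0 to 67.8 CPM in NZB cells. There was no overlap, and the changes were 2.07 ± 0.30 (adjusted p = 3.74e-06) and 2.85 ± 0.34 (adjusted p = 2.06e-07). Timeless and Tipin encode partners in 1 fork protection complex but differed in size of change. Timeless ran from 44.2 through 51.2 to 65.6 CPM and from 45.1 through 64.5 to 87.0 CPM in B6 cells, and from 32.5 through 38.6 to 84.7 CPM and from 47.5 through 62.2 to 87.3 CPM in NZB cells. Its states overlapped, with changes of 0.26 ± 0.17 (adjusted p = 0.211) and 0.68 ± 0.18 (adjusted p = 0.00289). Tipin rose by 1.12 ± 0.18 and 1.81 ± 0.20.

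**Figure D3:**
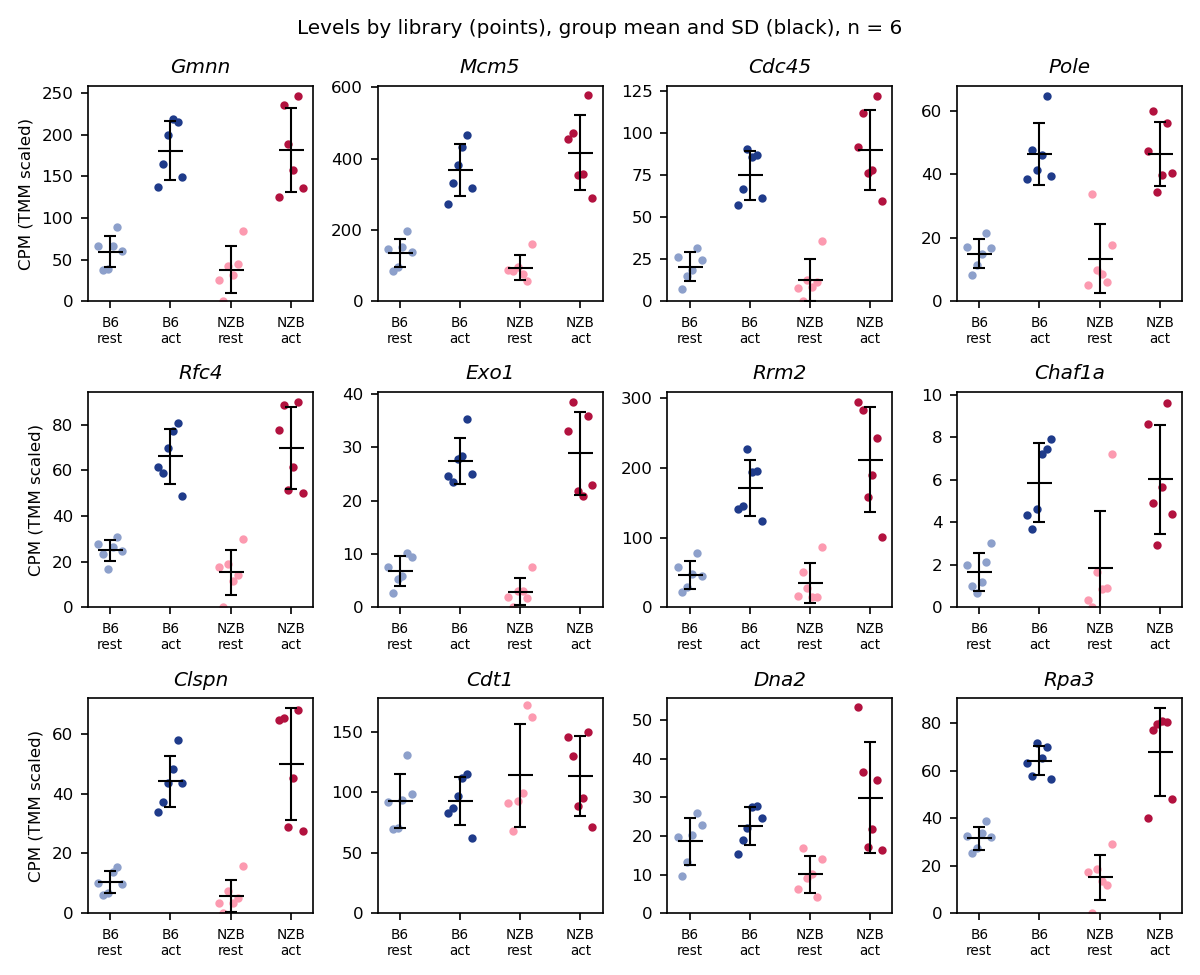
CPM of 12 genes in each library (points) with the group mean and SD in black, n = 6, in B6 resting, B6 activated, NZB resting and NZB activated libraries. The first 9 panels are the most changed gene of each role in B6 cells, Cdt1 overlaps between all groups, and Dna2 and Rpa3 show lower resting NZB levels.

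Promoters were read because the genes moved together. RefSeq promoter windows of the GRCm38.p6 build, 250 bases before to 50 bases after a gene's start, were found for 42 of the 52 genes. The entries of Exo1, Gins1, Gins2, Gins4, Gmnn, Mcm4, Pole, Prim2, Rfc2 and Tipin were missing. The letters of an E2F site, searched as TTTCCCGC, TTTGGCGC, TTTCGCGC or TTTGCCGC on both strands, stood in 15 of 42 genes (35.7%) and in 704 of 27025 genes of the whole table (2.60%). They stood in 4 of 5 MCM genes, 3 of 5 origin licensing genes and 4 of 7 polymerase and primase genes, and in 0 of 5 nucleotide supply genes. The CHR element of late cell cycle genes, searched as TTTGAA on both strands, stood in 7 of 42 genes (16.7%) and in 20.2% of all genes in the table, and 4 of these 7 were among the 5 helicase activation genes. For the mitosis genes described below the counts were the other way round, with E2F letters in 1 of 17 and CHR letters in 12 of 17. The median GC content of the windows was 61.3% for the 52 genes' entries, 59.0% for the mitosis genes and 52.7% over the table. A match is a description of letters and not a shown binding site. Windows of 30 bases are printed below on each gene's own strand, to show the match, in capitals, in genes of the origin, the helicase and the fork. Matches on opposite strands can share letters, as in Mcm5, so genes were counted and not matches.
Orc1, chr4:108579416-108579445, plus strand: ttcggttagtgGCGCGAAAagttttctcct
Cdc6, chr11:98908002-98908031, plus strand: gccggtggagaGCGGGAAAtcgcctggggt
Cdt1, chr8:122568035-122568064, plus strand: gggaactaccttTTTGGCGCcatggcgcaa
Mcm3, chr1:20820275-20820304, minus strand: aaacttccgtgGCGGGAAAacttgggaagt
Mcm5, chr8:75109345-75109374, plus strand: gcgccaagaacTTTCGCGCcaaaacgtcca
Mcm6, chr1:128359734-128359763, minus strand: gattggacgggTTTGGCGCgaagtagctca
Mcm7, chr5:138171849-138171878, minus strand: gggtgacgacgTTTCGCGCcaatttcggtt
Lig1, chr7:13278841-13278870, plus strand: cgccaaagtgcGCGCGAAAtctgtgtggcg
Clspn, chr4:126556990-126557019, plus strand: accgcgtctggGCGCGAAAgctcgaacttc
Cdt1 held the letters and had a log2 fold change of 0.00 in B6 cells, and Rrm2 and Tyms held none in their windows and rose by 1.86 and 1.81. Absence of these exact letters from a window does not show that a site is missing. A relation between letters and fold change was not tested.

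Other genes of the cell cycle were counted in lists that do not share members with the 52. Of 46 tested other replication genes, 26 rose and 1 fell in B6 cells (median 0.58), and 27 rose and 2 fell in NZB cells (median 0.80). Top2a, the topoisomerase that untangles replicated DNA, rose by 2.63 ± 0.28 in B6 cells (adjusted p = 3.49e-08), and Pclaf, a Pcna-binding factor, by 2.48 ± 0.30 (adjusted p = 2.49e-07). Rrm2b, the small reductase subunit used outside S phase, fell in the same cells, with a log2 fold change of -0.91 ± 0.29 (adjusted p = 0.0117). Of 13 E2F and pocket protein genes, 9 rose and 1 fell in B6 cells and 8 rose and 1 fell in NZB cells, with E2f7 at 2.60 ± 0.37, E2f2 at 1.69 ± 0.18 and E2f5 at -1.16 ± 0.31 in B6 cells. All 20 mitosis genes rose in both haplotypes, with medians of 2.15 and 2.99, above those of the 52 genes; Bub1 and Kif11, of the spindle checkpoint and the spindle motor, led in B6 cells at 2.71 ± 0.46 and 2.44 ± 0.26. Of 13 G1 cyclins, CDKs and their inhibitors, 9 rose and 2 fell in B6 cells, the latter being Ccnd1 (-4.07 ± 0.43) and Cdkn1b, the p27 inhibitor of quiescent cells (-1.67 ± 0.21). The largest rises there were of the inhibitors Cdkn2c (1.77 ± 0.24) and Cdkn1a (1.54 ± 0.40).

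The haplotypes were compared first at rest. Over 24 libraries, 45 of the 52 genes had a lower fitted level in NZB than in B6 cells, and 48.8% of all genes had a higher one. The median log2 difference of the 52 genes was -0.41, but 1 gene was called lower and 0 higher, where 0.861% of all genes were called lower and 1.9% higher. An unadjusted p under 0.05 was seen for 19 of the 52 genes, of which Dbf4 was higher in NZB cells and the others lower, and for 20.8% of all genes. The called gene was Rpa3 (ENSMUSG00000012483, GRCm39 chromosome 6, 8255929 to 8259173, minus strand). Its level ran from 25.5 through 32.2 to 39.0 CPM in B6 and from 0 through 15.5 to 29.3 CPM in NZB resting libraries. The ranges met only through NZB replicate 6, and the difference was -0.83 ± 0.20 (adjusted p = 0.0367). The next smallest adjusted p was that of Dna2, at -1.07 ± 0.31 (adjusted p = 0.0590), followed by Dut at -0.70 ± 0.21 (adjusted p = 0.0609). No gene's resting groups were separate, where this was so downward for 0.738% of all genes. By role, the median difference was -0.79 for flap and nick processing and -0.70 for nucleotide supply, beside -0.32 for the MCM ring and -0.22 for origin licensing.

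The resting result depended on which libraries entered. A second fit left out NZB resting replicates 2 and 6 and NZB activated replicate 6. Judged by group means, these libraries are missing from the published analysis. Over the remaining 21 libraries 19 of the 52 genes were called lower, where 3.88% of all genes were. The 19 were Cdc6, Mcm5, Mcm6, Mcm10, Cdc45, Pole, Rfc4, Rpa3, Fen1, Lig1, Dna2, Exo1, Rrm1, Rrm2, Tyms, Tk1, Dut, Clspn and Tipin, and they took in all 4 flap and nick genes and all 5 nucleotide supply genes. Over the 21 libraries the median difference of the 52 genes was -0.55, that of Cdc6 was -1.69 ± 0.32 (adjusted p = 0.00519), that of Mcm10 -1.49 ± 0.32 (adjusted p = 0.0108) and that of Rpa3 -1.04 ± 0.17 (adjusted p = 0.00277). Without NZB resting replicate 6 alone, 15 genes were called, all lower, where 4.94% of all genes were called in either direction. Without B6 resting replicate 2 alone 5 were called, where 2.72% of all genes were called in either direction. Without NZB resting replicate 3 or NZB activated replicate 1 there were 2, where 5.48% and 2.44% of all genes were called. Without NZB resting replicate 5 or any 1 of the other 5 B6 resting libraries there were 0, where 0% to 1.64% of all genes were called. With the resting libraries fitted on their own, 0 of the genes were called by edgeR over 12 libraries, with 12 genes at an unadjusted p under 0.05, and 0 over 10 libraries, with 33 such genes. Of all genes, 0 of 9907 were called over the 12 libraries and 2 of 10236 over the 10. A count of 0 in these fits therefore does not set the 52 genes apart.

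RNA of other blood cells also differed among the resting libraries. The summed granulocyte precursor and erythroid markers stood at 9088 CPM in B6 resting replicate 1, 4098 CPM in replicate 5, 3319 CPM in replicate 4, 2348 CPM in replicate 3, 2280 CPM in replicate 6 and 911 CPM in replicate 2. In NZB resting libraries they stood at 7134 CPM in replicate 6 and between 457 and 830 CPM in the other 5. The summed level of the 52 genes was 3517 CPM in NZB resting replicate 6 and between 2066 and 2372 CPM in the other 5 NZB resting libraries, while in B6 cells it ran from 2142 CPM in replicate 2 to 3845 CPM in replicate 5. B6 resting replicate 1, with the highest precursor markers, was at 3084 CPM, below replicates 4 and 5. NZB resting replicate 6 also held neutrophil markers at 19689 CPM, against 288 to 2066 CPM in the other 5, macrophage markers at 2634 CPM, against 407 to 1247 CPM, and the lowest summed T cell markers of the 24 libraries, at 2839 CPM. NZB resting replicate 6 held the highest resting NZB value for 32 of the 52 genes, B6 resting replicate 5 the highest resting B6 value for 38, and B6 resting replicate 2 the lowest for 35. All 4 tested granulocyte precursor and all 8 erythroid markers had lower fitted levels in NZB resting cells, 1 of the latter called. With the log2 summed marker level as a term in the resting libraries, added after the data were seen, the median difference of the 52 genes was -0.08 over 12 libraries, with 2 genes at an unadjusted p under 0.05, and -0.01 over 10 libraries, with 1 such gene, and 0 genes were called in either. The marker level was at least 911 CPM in B6 cells and at most 830 CPM in NZB cells apart from replicate 6. Over the 10 libraries the haplotypes did not overlap in it. The smaller differences therefore cannot be assigned to marker RNA or to haplotype. Within the sets of libraries, 5 genes were higher in NZB cells in the second set (1 NZB against 4 B6 libraries, median -0.37) and 4 in the third (4 against 2, median -0.71).

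**Figure D4:**
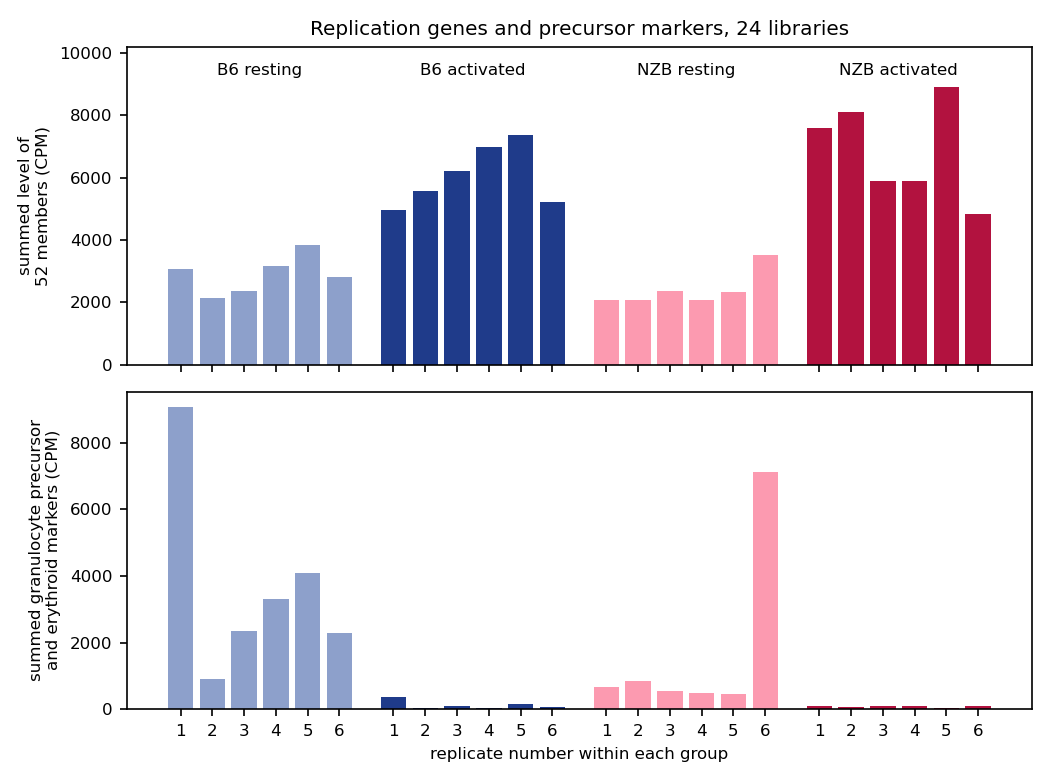
Summed level of the 52 genes (upper) and of 5 granulocyte precursor and 8 erythroid markers (lower), in CPM, for each library by group and replicate number. NZB resting replicate 6 stands above the other NZB resting libraries in both, at 3517 and 7134 CPM, and B6 resting libraries vary in both.

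After activation no gene of the set passed between haplotypes. By edgeR 0 of the 52 genes were called and 0 had an unadjusted p under 0.05, where 0 genes of all those tested were called in either direction and 3.09% had an unadjusted p under 0.05. DESeq2 called 0 as well. The fitted difference was above 0 for 46 of the 52 genes, with a median of 0.15 (1.11-fold), and 53.3% of all genes were above 0. Its 95% interval lay within a 2-fold change in either direction for 50 genes, the exceptions being Orc1 and Pole2. The smallest unadjusted p was that of Rpa1, which ran from 198 through 235 to 238 CPM in B6 and from 208 through 276 to 303 CPM in NZB activated libraries. These ranges overlapped, and the difference was 0.21 ± 0.11 (adjusted p = 1.00). Chaf1b, at 56.0 through 66.8 to 82.1 CPM in B6 and 56.4 through 83.5 to 108 CPM in NZB activated libraries, differed by 0.31 ± 0.16 (adjusted p = 1.00). Pold2, at 110 through 129 to 165 CPM and 119 through 151 to 223 CPM, differed by 0.28 ± 0.16 (adjusted p = 1.00). Over 21 libraries 0 genes were called and 6 had an unadjusted p under 0.05, all higher in NZB cells, where 6.02% of all genes were higher at that level. Within the sets of libraries, 45 genes were higher in NZB cells in the first set (2 NZB against 5 B6 libraries, median 0.16) and 14 in the second (2 against 1, median -0.08). The 1 B6 library of the second set was activated replicate 5, which had the highest summed level of its group.

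The response itself was then compared, as the NZB minus the B6 log2 fold change on activation. This difference uses the same libraries as the comparisons at rest and after activation, so the 3 are not independent. Resting levels enter it, and the part of precursor marker RNA in it was not tested, over 24 or over 21 libraries. Over 24 libraries by edgeR 0 genes were called, as were 0 of all genes tested, and by DESeq2 0 of the 52. An unadjusted p under 0.05 was seen for 18 of the 52 genes, all of them higher in NZB cells, where 7.19% of all genes were higher at that level. That count was 4 with the block by label number, 9 with the block by title number and 10 with library sets as a term, and with 1 library left out it lay between 10 (without B6 resting replicate 5) and 34 (without NZB resting replicate 6). The difference was above 0 for 46 of the 52 genes and for 52.2% of all genes, with a median of 0.53 (1.44-fold) for the 52, beside 0.02 over all genes tested. The smallest p values were those of Rpa3, Dut and Dna2. Rpa3 responded by 1.02 in B6 and 1.94 in NZB cells, a difference of 0.93 ± 0.27 (adjusted p = 0.207). Dut responded by 1.25 and 2.21, a difference of 0.95 ± 0.28 (adjusted p = 0.207), and Dna2 by 0.28 and 1.67, a difference of 1.39 ± 0.42 (adjusted p = 0.207). By role the median difference was 0.91 for flap and nick processing and 0.87 for nucleotide supply, and 0.20 for origin licensing. Dbf4, Pole2, Pcna, Cdt1, Chaf1a and Cdc7 had differences below 0, of which the lowest was -0.46 ± 0.47 for Pole2.

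Over the 21 libraries 9 genes were called with a larger response in NZB cells, where 0.878% of all genes were called in that direction. They were Cdc6, Mcm10, Rpa3, Lig1, Dna2, Rrm1, Rrm2, Dut and Chaf1b. The 6 with the smallest p, and Dut, tied with the last of them, were Rpa3 at 1.23 ± 0.22 (adjusted p = 0.0422), Rrm2 at 1.79 ± 0.38 (adjusted p = 0.0439), Cdc6 at 1.72 ± 0.39 (adjusted p = 0.0447), Mcm10 at 1.71 ± 0.39 (adjusted p = 0.0447), Rrm1 at 1.31 ± 0.31 (adjusted p = 0.0483), and Dna2 and Dut at 1.75 ± 0.42 and 1.18 ± 0.28 (adjusted p = 0.0483). The median difference was 0.84, and 37 genes had an unadjusted p under 0.05, all with the larger response in NZB cells, where 10.4% of all genes did. With the block by label number the 21 libraries gave 0 calls for this difference, with 31 genes at an unadjusted p under 0.05. In that fit only label numbers 11, 19 and 21 in NZB cells and 13, 14, 16, 22 and 23 in B6 cells headed libraries of both states. With the library sets as a term the 21 libraries also gave 0 calls by edgeR, with 35 such genes. Without NZB resting replicate 6 alone, the library with the raised precursor markers, there were 0 calls and 34 genes at an unadjusted p under 0.05. NZB activated replicate 6, also among the libraries left out, had the lowest summed level of its group, at 4829 CPM. It held the lowest activated NZB value for 40 of the 52 genes. Without it alone there were 0 calls and 25 genes at an unadjusted p under 0.05. The comparison of the 24 and 21 libraries is plotted for every gene.

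**Figure D5:**
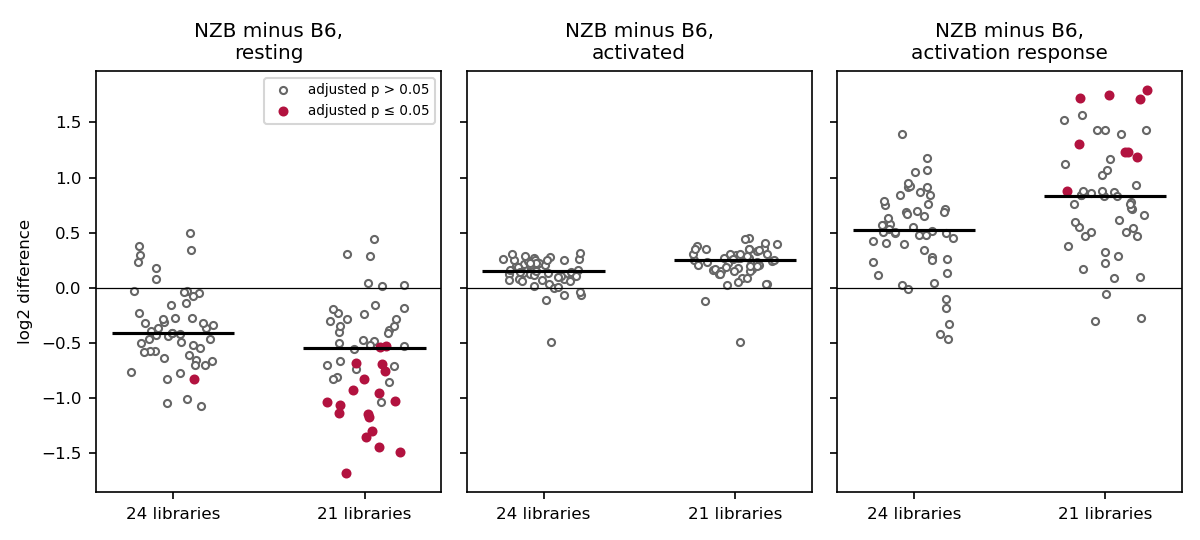
Log2 difference NZB minus B6 (y axis) for each of the 52 genes, at rest, after activation and in the activation response, over 24 libraries and over 21 of them; filled red points were called and black lines are medians. At rest the median is -0.41 over 24 and -0.55 over 21 libraries with 1 and 19 genes called, after activation it is 0.15 with 0 called over 24 libraries, and in the response it is 0.53 and 0.84 with 0 and 9 called.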

How the data were processed

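RNA of 24 libraries was measured, 6 per group, and samples were assigned to groups from their titles. Per the labels and the study's methods, the authors trimmed reads with cutadapt, mapped them with STAR to 3′ UTR regions of GRCm39 and counted them per gene with HTSeq. The authors deposited UMI-corrected counts that are whole and unscaled. A larger deposited table was read as the counts before UMIs were collapsed. Strand is not named in the counting, so genes that overlap at a 3′ end cannot be told apart. This touched 14 of the 52 genes, 10 of them through a protein-coding gene. Reads of processed pseudogenes of Pcna and Tyms can also be divided between copies. The count tables hold 1 further column whose name fits no sample, and it was left out, as were the authors' fold changes.

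In R 4.3.3, edgeR 4.0.16 took the 4 groups into a single quasi-likelihood model (glmQLFit, glmQLFTest) after filterByExpr and TMM scaling, and p-values were adjusted over 10566 genes (Benjamini-Hochberg). The SE is the size of a log2 fold change divided by the square root of F. Nothing in the labels ties libraries to animals, so p-values measure the spread between libraries. Libraries of a group differed beyond sampling noise in every pair, with a chi-square of 2.97 or more for each degree of freedom. The methods describe cells divided into resting and activated, and 9 label numbers head a library of each, but no source used here ties a number to an animal. Deviations of libraries that share a label number correlated at -0.16 to 0.25, which neither shows nor excludes that they are paired. The main fit took no pairing, and fits with a block by label number are given beside it. Counting error is large in the smallest library, and UMI counts cover counting error only.

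Alternatives were DESeq2 1.42.0, median-of-ratios size factors, other filters, a fold cut-off, the second table, fits of 2 groups, a replicate block, library sets as a term, thinning, leaving out each library, and 21 libraries. Which 3 libraries the study left out was worked out from group means in its dataset. Fits of 10 resting libraries, the precursor marker term, a block by title number across haplotypes and a fit without the 2 smallest libraries were added after the data were seen. The set of 52 genes, the roles and the other lists were chosen with earlier results of these data known. Genes with values by library are, in each role, the largest and smallest log2 fold change in B6 cells, and between haplotypes those called, at most 6, or the 3 with the smallest p. Others are named by the 2 largest rises and falls called in each list. Pcna, Prim1, Tyms and other genes given with fold changes alone were chosen to show a role. Motifs were searched and figures drawn in Python 3.11.15. The script was tested on simulated counts. 1 B cell marker is not reported here.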

Additional observations from a re-analysis of the deposited data

Results flagged for a closer look

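In groups of 6 libraries, 84 sets of values (members with values by library, and the summed level) were searched for a single library far from the other 5, and 6 were found. Chance gives about 1 in 20. In NZB resting cells, the summed level of the 52 genes was 3517 CPM in replicate 6, with 2372 CPM next. The same library held Cdc45 at 36.1 CPM, with 12.4 CPM next, and Chaf1a at 7.23 CPM, with 1.68 CPM next. Its summed granulocyte precursor and erythroid markers were 7134 CPM, its neutrophil markers 19689 CPM and its T cell markers 2839 CPM, the lowest of all libraries. The part of that RNA in these values was not tested. NZB resting replicate 2 held Cdc7 at 33.9 CPM, with 10.7 CPM next, and Timeless at 84.7 CPM, with 52.1 CPM next, values that in this library stand for 2 and 5 UMIs. In B6 activated cells, Pole stood at 64.7 CPM in replicate 5, with 47.7 CPM next, in the library that held the highest value of 32 of the 52 genes.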

How the results depend on the processing

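The median rise on activation kept its direction across the alternatives tried. It lay between 0.97 and 1.18 on the log2 scale in B6 cells and between 1.32 and 1.94 in NZB cells. Leaving out each library gave 45 to 48 genes called in B6 cells and 46 to 50 in NZB cells, and the other settings gave 41 to 48 and 44 to 50, apart from a fold cut-off of 2, which left 30 and 41. The 41 in B6 cells came from thinning, where 49 of the genes were tested. With a replicate block by label number 44 were called in B6 and 44 in NZB cells, and 46 and 47 over the 21 libraries, and the block gave 0 calls for the difference of responses with 24 and with 21 libraries. The label numbers are not shared by both haplotypes, so the haplotype comparisons took the title number as the block, which gave 0 genes at rest (1 without it) and 0 after activation. No source used here ties libraries of the 2 haplotypes that share a title number, so this block cannot show whether a pairing matters. At rest, 1 gene was called over 24 libraries, 0 with a fold cut-off of 2, with the second table, with 2 groups alone, with the library sets as a term, with 10 resting libraries and with the marker term over 12 or 10 libraries. Of all genes, 1.01% were called with the fold cut-off, 0.358% with the second table and at most 0.0195% in the other settings that gave 0. The count was 19 over the 21 libraries, where 3.88% of all genes were called lower. It was 12 with the library sets as a term over the 21, where 3.21% of all genes were called in either direction. Leaving out each library gave 0 to 15, with 15 without NZB resting replicate 6, 5 without B6 resting replicate 2, 2 without NZB resting replicate 3 or NZB activated replicate 1, and 0 without NZB resting replicate 5 or any one of the other 5 B6 resting libraries. Why was not tested. After activation every setting gave 0 genes and leaving out each library gave 0 to 0. For the difference of responses, 9 were called over 21 libraries, 0 in every other setting, and leaving out each library gave 0 to 0. Cdt1 changed sign without passing. In B6 cells it was at -0.0031 with median-of-ratios factors, -0.0021 with DESeq2, -0.0258 with a stricter filter, -0.0066 with 2 groups, -0.12 with the block over 24 and over 21 libraries and -0.14 when thinned, and between -0.0672 and 0.13 with each library left out. In NZB cells it was at 0.0945 over 21 libraries, 0.16 there with the block, 0.0510 with the library sets, 0.17 with both, and between -0.21 and 0.0408 with each library left out. Dna2 in B6 cells was at -0.0310 when thinned. Of the recomputed fold changes of genes named with values, 1518 kept direction and call, 38 lost and 5 gained a call. Depth limits NZB resting replicate 2 most, where 1 UMI was 16.9 CPM.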
